A study of Saccharomyces cerevisiae with 14 samples.

Results

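The genes described here are the 53 yeast genes whose standard name is UTP, NOP or RRP followed directly by a number, out of 6612 transcripts in the deposited tables. There are 18 UTP, 17 NOP and 18 RRP genes among them, taken from the R64 annotation and matched to the tables by systematic name. A further 14 genes carry such a name only as a synonym (PWP2, also called UTP1, is one) and were not counted as members. RNA was sequenced from budding yeast that carry arp8-AA, an allele of ARP8 with alanine in place of 2 serines (S65A and S233A), whose product belongs to the chromatin remodeller INO80, and from ARP8 wild-type cells. The question was whether loss of these phosphorylation sites alters transcription. Asynchronous cultures were sampled with 3 biological replicates per genotype, and cultures released from an α-factor arrest were sampled at 10 min (G1) and 20 min (early S) with 2 biological replicates per genotype and time.

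Both strains are listed as MAT a with his3Δ1, leu2Δ0 and ura3Δ0, and met15Δ0 is listed only for the ARP8 strain. MET15 was nevertheless at 0 estimated counts in all 14 libraries, 7 of arp8-AA and 7 of ARP8, so the listed difference at this locus was not seen in the RNA. The 2 substitutions themselves cannot be read from transcript totals. Each genotype is represented by 1 strain, so a difference between genotypes is also a difference between 2 strains. The libraries held between 1864995 and 6016858 estimated counts. The stage labels were checked against marker genes. The 8 core histone genes, which are transcribed in S phase, had median log2 fold changes of 1.52 in arp8-AA and 1.18 in ARP8 at 20 min against 10 min, and the 6 pheromone-response genes had medians of 3.81 in arp8-AA and 3.62 in ARP8 at 10 min against asynchronous cells. These medians join replicates that stood far apart. HHF1, a histone H4 gene, had 597.9 and 2269 CPM (a unit that corrects for library size) at 20 min and 101.9 and 613 CPM at 10 min in arp8-AA, and 1202 and 2171 CPM at 20 min and 159.9 and 1283 CPM at 10 min in ARP8. In ARP8, replicate 2 at 10 min was thus above replicate 1 at 20 min. The median log2 ratio of the 8 genes, 20 min over 10 min, was 1.72 in replicate 1 and 1.56 in replicate 2 of arp8-AA, and 1.997 in replicate 1 and 0.57 in replicate 2 of ARP8. FUS1, a pheromone-response gene, had 102.6 and 23.5 CPM at 10 min and between 19.1 and 32.3 CPM in asynchronous cells of arp8-AA, and 104.1 and 19.98 CPM at 10 min and between 12.6 and 30.2 CPM in asynchronous cells of ARP8. In both genotypes replicate 2 of FUS1 at 10 min lay within the asynchronous range. Of the other pheromone-response genes, scaled within each experiment, FUS3 lay below its asynchronous range in replicate 2 at 10 min. PRM1 lay above its own, at 119.1 CPM in arp8-AA and 107.3 CPM in ARP8, against at most 18.7 and 11.55 CPM in asynchronous cells. AGA1 did so too, at 20.4 and 19.1 CPM against at most 7.89 and 16.8 CPM. FIG1 and FIG2 did not pass the filter on low counts in asynchronous cells. The synchronised replicates thus differed in their stage markers, and values by replicate stand beside the results from them. The part of this difference in those results was not tested.

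Ribosome biogenesis begins in the nucleolus, where RNA polymerase I transcribes a long precursor that is bound, folded, modified and cut to give the mature ribosomal RNAs. UTP proteins build the small subunit processome, the large particle that assembles around the growing precursor with the U3 small nucleolar RNA. NOP names mark nucleolar proteins, which include the core proteins of the small nucleolar ribonucleoproteins (snoRNPs) that modify the precursor and many assembly factors of the large subunit, and RRP names mark proteins of ribosomal RNA processing, which include subunits of the exosome, the main nuclear RNA-degrading complex. In growing yeast most of these genes belong to one large co-regulated set, and many of its promoters carry 2 short elements, PAC and RRPE.

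Grouped by role, the members divided into 8 sets. The UTP-A complex, which binds the precursor first and is also called t-Utp for its link to transcription, was represented by UTP4, UTP5, UTP8, UTP9, UTP10 and UTP15. The UTP-B complex was represented by UTP6, UTP13, UTP18 and UTP21, and the UTP-C complex by UTP22 and RRP7. The box C/D snoRNP set held NOP1 (fibrillarin, the methyltransferase), the scaffold proteins NOP56 and NOP58, and RRP9, which binds U3. NOP10 encodes a small protein of the box H/ACA snoRNPs that make pseudouridine. The 15 other factors of the 90S and 40S particles were UTP7, UTP11, UTP14, UTP20, UTP23, UTP25, UTP30, NOP6, NOP9, NOP14, NOP19, the helicase RRP3, RRP5, which acts in the maturation of both subunits, RRP12 and RRP36. The 14 factors of the 60S particle were the RNA methyltransferases NOP2 and RRP8, NOP4, NOP7, NOP8, NOP12, NOP13, NOP15, NOP16, NOP53, RRP1, RRP14, RRP15 and RRP17. The exosome set held the ring subunits RRP42, RRP43, RRP45 and RRP46, the cap subunits RRP4 and RRP40, and RRP6, a nuclease of the nuclear exosome.

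The promoters of these genes shared sequence features that the choice by name did not use. In the 250 bases before the start codon, the letters GCGATGAG, written here for PAC, were present on either strand for 23 of the 53 members (43.4%), against 230 of 5897 coding genes with a full window (3.90%). The letters AAAAATTTT, written for the RRPE core, were present for 26 members (49.1%), against 404 of all coding genes (6.85%). Both motifs were found for 12 members (22.6%), against 1.64% of all coding genes, and neither for 16 members. A run of AAAAATTTTT holds the RRPE letters on both strands and was counted as 1 gene. The first letter of the PAC matches of the members lay between positions -229 and -89, where -1 is the base before the start codon.

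The following stretches of R64, written on the strand of the gene with matches in capitals, belong to 6 of the genes whose values are described below and show the 3 arrangements (both motifs, PAC alone, RRPE alone).
NOP2 (chrXIV:510387-510427, + strand): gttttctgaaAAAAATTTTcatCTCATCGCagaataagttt
UTP6 (chrIV:1358991-1359041, - strand): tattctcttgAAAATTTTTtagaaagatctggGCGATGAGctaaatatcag
NOP13 (chrXIV:308695-308723, - strand): agaaaaaattGCGATGAGcatagatgata
UTP11 (chrXI:256583-256611, - strand): gctagatgagCTCATCGCgatttgaagaa
NOP1 (chrIV:427128-427157, + strand): ctttttcttgAAAAATTTTTcaaattggaa
UTP4 (chrIV:1116779-1116807, - strand): aaaccaaatgAAAAATTTTcagactgaca
In NOP2 and UTP11 the capitals CTCATCGC are PAC on the opposite strand, and in UTP6 the capitals AAAATTTTT are the RRPE letters on the opposite strand. NOP10 and UTP18, which are also described below, had a match to neither motif in the window.

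The motifs were unevenly spread over the roles. PAC was matched for 8 of the 14 factors of the 60S particle, 8 of the 15 other 90S and 40S factors, 3 of 4 UTP-B genes and 3 of 6 UTP-A genes, but for none of the 4 box C/D genes and 1 of the 7 exosome genes (RRP4). The RRPE letters were matched for 5 of 6 UTP-A genes and for NOP1, NOP56 and NOP58, but for 1 exosome gene (RRP6). Among 96 ribosome biogenesis factors of other names, 54 had PAC (56.2%) and 64 the RRPE letters (66.7%), whereas among 137 cytosolic ribosomal protein genes 1 had PAC and 6 the RRPE letters. A match describes the letters of the window and is not a measurement of binding.

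**Figure D1:**
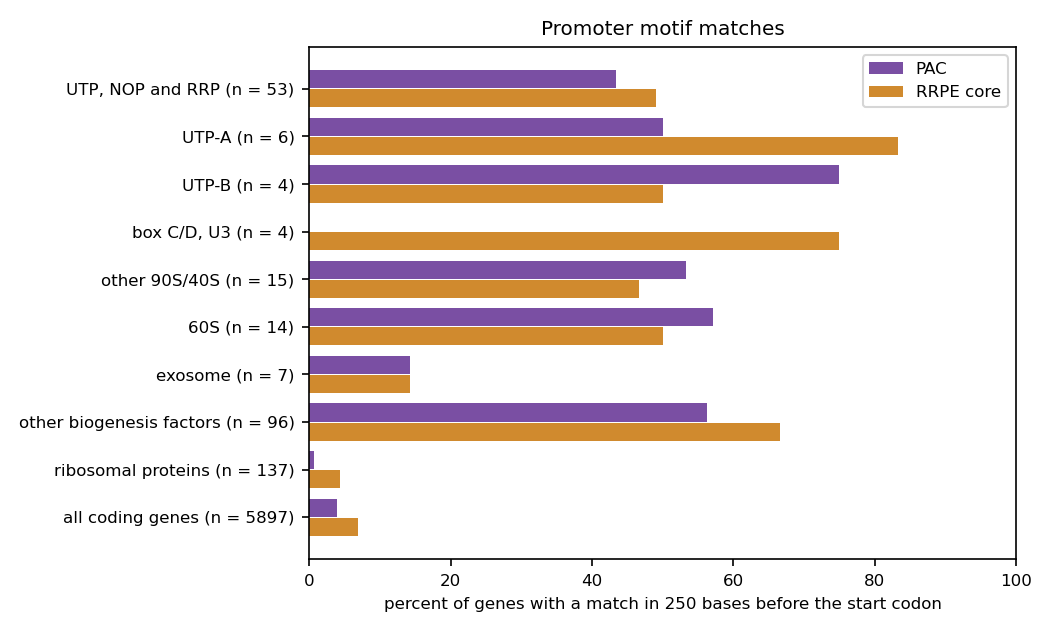
Percent of genes with a match to PAC (purple) or to the RRPE core (orange) within 250 bases before the start codon, for the members, for role groups of at least 4 genes, for other biogenesis factors, for ribosomal protein genes and for all coding genes. PAC was matched for 43.4% of the UTP, NOP and RRP genes and 3.90% of all coding genes, and the box C/D group has no PAC bar because none of its 4 genes had a match.

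All 53 genes were measured in every library, with at least 16 estimated counts each, and all passed the filter on low counts in each comparison. Levels are given as TPM, a unit that corrects for both transcript length and library size. The mean over the 14 libraries ranged from 6.999 TPM (NOP8) to 1782 TPM (NOP10), with a median over the members of 74.7 TPM, against 22.4 TPM over all 6612 transcripts. The members' level was above that of the median transcript for 48 of 53 genes, and the exceptions were NOP8, RRP6, RRP17, UTP30 and UTP25. The UTP-A genes lay close together, with means between 48.6 and 103 TPM, as did the UTP-B genes, with means between 44.5 and 83.4 TPM.

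NOP10 stood apart from every other member in TPM, which corrects for length, and its transcript has only 177 bases. It did not stand apart in CPM. There NOP56 had between 793.6 and 1313 CPM, and NOP10 had between 89.7 and 266.6 CPM. NOP10 had 1950, 2326 and 2294 TPM in asynchronous arp8-AA cells and 2077, 2153 and 2508 TPM in asynchronous ARP8 cells. It had 1175 and 1428 TPM in arp8-AA at 10 min, 1309 and 1420 TPM in ARP8 at 10 min, 1637 and 1640 TPM in arp8-AA at 20 min and 1686 and 1353 TPM in ARP8 at 20 min. All asynchronous values were above all synchronised values in both genotypes. The next genes in order were NOP56, between 352.9 and 575 TPM, and NOP7, whose protein works with Erb1 and Ytm1 in the early 60S particle, between 241.3 and 435 TPM. Their ranges overlapped across libraries.

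At the other end, NOP8, a 60S factor, had 4.42, 5.42 and 6.42 TPM in asynchronous arp8-AA cells and 6.11, 5.72 and 7.16 TPM in asynchronous ARP8 cells, and at most 9.02 TPM in any library. RRP6 had 9.88, 8.16 and 10.7 TPM in asynchronous arp8-AA cells and 21.98, 10.0 and 7.54 TPM in asynchronous ARP8 cells, so that 1 ARP8 library, replicate 1, was far above the others. RRP17, a 60S factor, varied the most of all members, between 7.01 TPM in replicate 3 of asynchronous ARP8 cells and 30.1 TPM in replicate 2 of ARP8 cells at 20 min. These 3 genes had the lowest levels per length of all members.

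**Figure D2:**
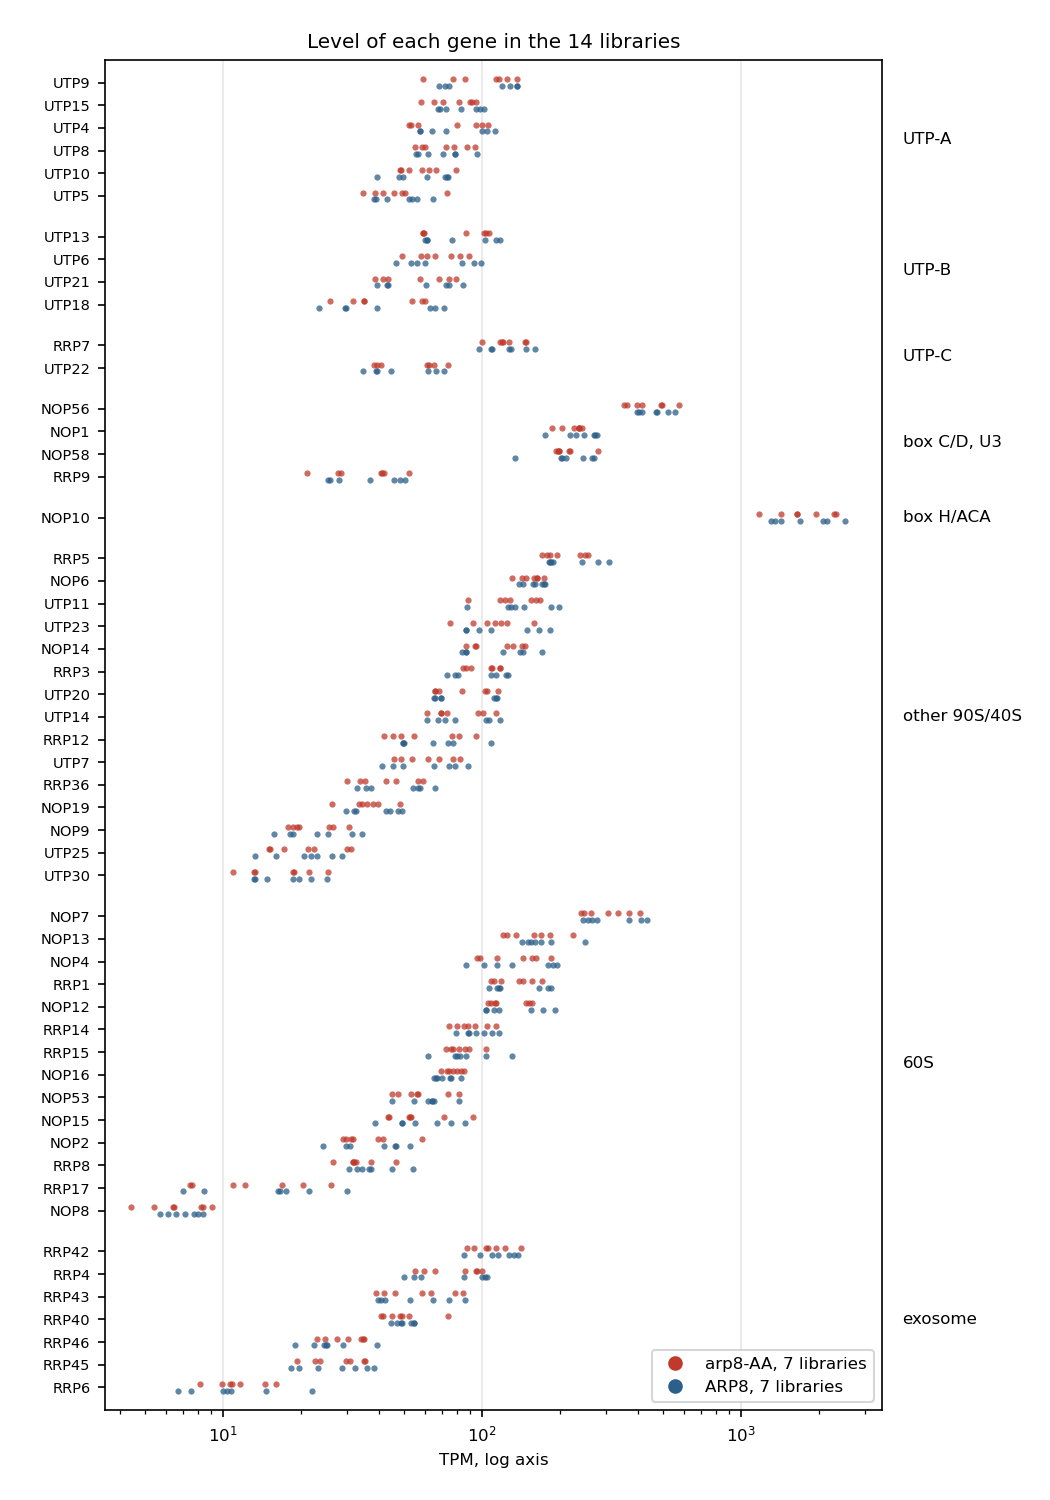
Level of each of the 53 genes in TPM on a log axis, 1 dot per library, with arp8-AA (red) above ARP8 (blue) for each gene, grouped by role and ordered by mean within a role. NOP10 lies between 1175 and 2508 TPM and NOP8 between 4.42 and 9.02 TPM, and for most genes the red and blue dots cover the same range.

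The spread of the members between libraries is set beside that of all transcripts, which were not matched to the members in level. On the scale of CPM, computed here with TMM factors, the ratio of a member's highest to its lowest library had a median of 1.83, against 2.19 over the 5427 transcripts above 0 in every library. The helicase gene RRP3 was the steadiest, at 1.39, and RRP17 (3.49), RRP6 (3.47) and NOP10 (2.97) the least steady. Together the 53 genes took between 1.17% and 1.70% of the estimated counts of a library. In asynchronous cultures their share was 1.17%, 1.38% and 1.24% in arp8-AA and 1.31%, 1.36% and 1.38% in ARP8. At 10 min it was 1.23% and 1.49% in arp8-AA and 1.45% and 1.35% in ARP8, and at 20 min 1.48% and 1.51% in arp8-AA and 1.58% and 1.70% in ARP8. The genotypes overlapped in asynchronous cultures and at 10 min, and did not overlap at 20 min, where each group has 2 libraries.

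In asynchronous cells, no member passed the threshold of an adjusted p under 0.05 between arp8-AA and ARP8, where 0.942% of the 5204 transcripts tested did. All the same, 48 of the 53 members had a negative log2 fold change, with a median of -0.17 over the members and -0.003 over all transcripts. Of the 53 members, 9 were at an unadjusted p under 0.05, a share close to the 15.9% of all transcripts tested, counted in either direction. All 9 were lower in arp8-AA. The CPM of all 3 arp8-AA libraries was below that of all 3 ARP8 libraries for 9 members (NOP2, NOP6, NOP8, RRP40, RRP8, UTP10, UTP13, UTP30 and UTP4) and above it for none, against 7.26% of all transcripts without overlap in the first direction and 8.90% in the second. All 8 core histone genes were negative too, with a median of -0.37, and 3 of them were called lower in arp8-AA. Their pair medians were -0.33, -0.27 and -0.32, with 8, 6 and 7 genes below 0, and their part in the values of the members was not tested.

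The 3 members with the smallest p in this comparison belong to 3 roles. NOP13, which encodes a nucleolar RNA-binding protein found in preribosomal particles, had 238.0, 339.2 and 261.7 CPM in arp8-AA and 335.3, 375.5 and 337.1 CPM in ARP8 (log2 fold change -0.33 ± 0.09 SE, adjusted p = 0.121). Replicate 2 of arp8-AA lay above 2 of the ARP8 libraries, so the groups overlapped. NOP56 had 871.9, 1091 and 910.8 CPM in arp8-AA and 1070, 1160 and 1197 CPM in ARP8 (-0.26 ± 0.08, adjusted p = 0.155). Here too the overlap came from replicate 2 of arp8-AA alone. UTP4 had 210.4, 232.0 and 228.0 CPM in arp8-AA and 277.2, 266.0 and 266.2 CPM in ARP8 (-0.27 ± 0.09, adjusted p = 0.177), with no overlap. The largest negative value of all members was that of RRP6 (-0.50 ± 0.25, adjusted p = 0.351), for which replicate 1 of ARP8 stood apart.

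By role, all 6 UTP-A genes were negative in asynchronous arp8-AA cells (median -0.18), as were the 4 box C/D genes (-0.17), 14 of the 15 other 90S and 40S factors (-0.19) and 13 of the 14 factors of the 60S particle (-0.19). The 4 UTP-B genes were split, with UTP6 and UTP18 at 0.01 and 0.03, and the exosome had a median of -0.08. Genes with and without PAC had close medians, -0.16 over the 23 genes with a match and -0.17 over the 30 without.

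The members' median differed between pairs of libraries with the same replicate number. In pair 1 of the asynchronous cultures the median log2 ratio of CPM + 1, arp8-AA over ARP8, was -0.24 with 45 of 53 members below 0, and in pair 3 it was -0.25 with 50 below 0. In pair 2 it was -0.02, with 29 below 0. The median over all transcripts tested was at most 0.004 in these pairs. Among synchronised cells, pair 1 at 10 min had a median of -0.24 with 51 members below 0, but pair 2 at 10 min had a median of 0.05 with 22 below 0. Both pairs at 20 min had negative medians, -0.14 (47 below 0) and -0.15 (40 below 0), where the median over all transcripts was 0.004 in pair 1 and 0.04 in pair 2.

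**Figure D3:**
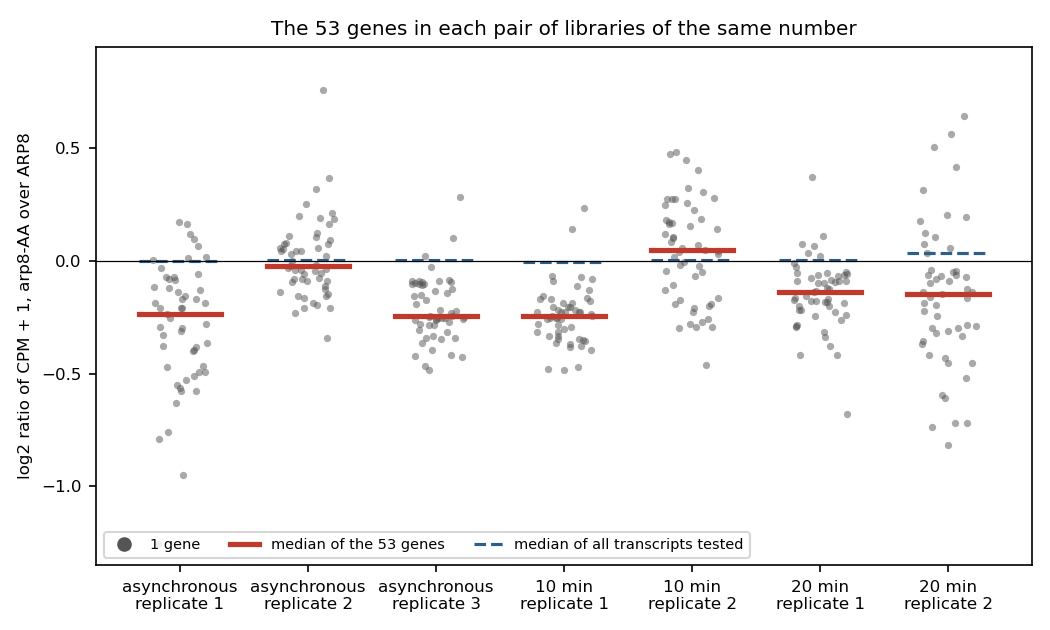
Log2 ratio of CPM + 1, arp8-AA over ARP8, for each of the 53 genes (dots) in the 7 pairs of libraries with the same replicate number, with the median of the 53 genes (red line) and of all transcripts tested (dashed blue line). The red line lies between -0.14 and -0.25 in 5 pairs and at -0.02 and 0.05 in the replicate 2 pairs of asynchronous cells and of 10 min.

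Counted in CPM over all 7 pairs, 45 of the 53 members were lower in arp8-AA in at least 5 pairs. Of these, 4 were lower in all 7 (NOP1, NOP13, NOP19 and NOP7). Of the 5183 transcripts tested in both experiments, 27.7% were lower in at least 5 pairs and 2.68% in all 7. The pairs are not independent. Synchronised libraries of the same replicate number deviated together from their group means, with r of 0.493 to 0.661. Most of these genes also belong to 1 co-regulated set, so a shift of 1 library can count for many members. RRP6 and UTP18, lower in 3 pairs, were the members with the fewest. The count depended on the unit. In TPM, each of the 4 genes lower in all 7 pairs in CPM was higher in arp8-AA in some pair. In pair 2 at 10 min, NOP1, NOP13 and NOP7 had 203.3, 183.7 and 335 TPM in arp8-AA and 175.7, 153.9 and 278.9 TPM in ARP8. In pair 1 of the asynchronous cultures, NOP19 had 33.58 TPM in arp8-AA and 32.66 TPM in ARP8.

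At 10 min after release, no member differed between arp8-AA and ARP8 at the threshold, and none of the 5453 transcripts tested did (0% called). No member was at an unadjusted p under 0.05, where 2.82% of all transcripts were. The sign was negative for 44 of 53 members, with a median of -0.09. The smallest p belonged to UTP11, a factor of the small subunit processome, with 111.2 and 157.6 CPM in arp8-AA and 130.3 and 217.5 CPM in ARP8 (log2 fold change -0.35 ± 0.16, adjusted p = 0.9999). The 2 genotypes overlapped, since replicate 2 of arp8-AA was above replicate 1 of ARP8. RRP14 (-0.30 ± 0.15) and RRP36 (-0.33 ± 0.18) followed. RRP14 had 133.1 and 174.6 CPM in arp8-AA and 175.3 and 202.1 CPM in ARP8, with all arp8-AA values below all ARP8 values by a small margin, and RRP36 had 46.1 and 69.0 CPM in arp8-AA and 64.7 and 79.3 CPM in ARP8, with overlap. The median of the members was 0.03, on the other side of 0, without replicate 1 of arp8-AA at 10 min. All 8 core histone genes were lower in value in arp8-AA at 10 min in both pairs, with medians of -0.38 in pair 1 and -0.74 in pair 2 and none called. The 9 late G1 genes had medians of -0.26 in pair 1 and 0.37 in pair 2. The part of these markers in the values of the members was not tested.

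At 20 min, no member passed the threshold, as against 0.0183% of all transcripts. Of the members, 46 were negative with a median of -0.17. At an unadjusted p under 0.05 were 4 members (UTP18, UTP15, UTP6 and NOP12), a share close to the 7.15% of all transcripts. UTP18, of the UTP-B complex, had 130.7 and 100.3 CPM in arp8-AA and 165.3 and 177.2 CPM in ARP8 (log2 fold change -0.58 ± 0.20, adjusted p = 0.694). UTP15, of UTP-A, had 186.8 and 141.2 CPM in arp8-AA and 211.6 and 233.1 CPM in ARP8 (-0.44 ± 0.18), and UTP6, of UTP-B, had 133.0 and 124.9 CPM in arp8-AA and 157.7 and 191.2 CPM in ARP8 (-0.43 ± 0.18). The share of all transcripts without overlap was not counted among the synchronised libraries, and these 3 genes were picked by their small p. With that limit, the genotypes did not overlap in any of the 3 genes. Replicate 2 was lower in arp8-AA and higher in ARP8 than replicate 1. Replicate 2 of arp8-AA at 20 min also stood apart in some genes outside the members. The ribosomal protein gene RPL6A had 175.7 CPM there, against 71.4 to 77.7 CPM in the other 20 min libraries. HTB1, a histone gene, had 89.5 CPM there, against 14.7 to 34.9 CPM. RPL6A and HTB1 were also high in replicate 1 of asynchronous ARP8 cells, at 379.2 and 89.0 CPM. The part of this deviation in the values of the members was not tested. All 4 UTP-B genes (median -0.32) and all 6 UTP-A genes (-0.20) were negative, whereas the exosome had a median of 0.02 and RRP6 was at 0.54 ± 0.25.

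At 20 min, all 9 late G1 genes had positive log2 fold changes in arp8-AA against ARP8 (median 0.52, none called), and 6 of the 8 histone genes had negative ones (median -0.16, none called). The histone genes went opposite ways in the 2 pairs, with all 8 below 0 in pair 1 (median -0.63) and 7 of 8 above 0 in pair 2 (0.21), while the members were below 0 on balance in both. Their part in the values of the members was not tested. In bulk RNA, fewer cells with a transcript and less of it per cell cannot be told apart.

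Over both times together, 49 of the 53 members were negative (median -0.15), and none was called, where 0.0917% of all transcripts were. RRP36 alone was at an unadjusted p under 0.05, where 6.36% of all transcripts were. RRP36 (-0.28 ± 0.12), NOP1 and UTP18 had the smallest p (adjusted p = 0.768 for each). NOP1 had 223.7 and 273.6 CPM in arp8-AA and 285.4 and 286.7 CPM in ARP8 at 10 min, and 302.9 and 328.0 CPM in arp8-AA and 370.0 and 373.1 CPM in ARP8 at 20 min. In CPM it was lower in arp8-AA in every pair by a margin that did not pass the test. The difference between the genotype effects at the 2 times was not called for any member (0% of all transcripts called), and none was at an unadjusted p under 0.05, where 2.02% of all transcripts were, with UTP18, UTP15 and UTP6 at the smallest p (adjusted p = 0.962). Nor was the genotype effect at 10 min or at 20 min found to differ from that in asynchronous cells for any member (smallest adjusted p = 0.9999 in both, with 0 members at an unadjusted p under 0.05 for 10 min and 1 for 20 min). The DESeq2 Wald test and limma-voom called no member either in any comparison of the genotypes or of 20 min with 10 min.

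**Figure D4:**
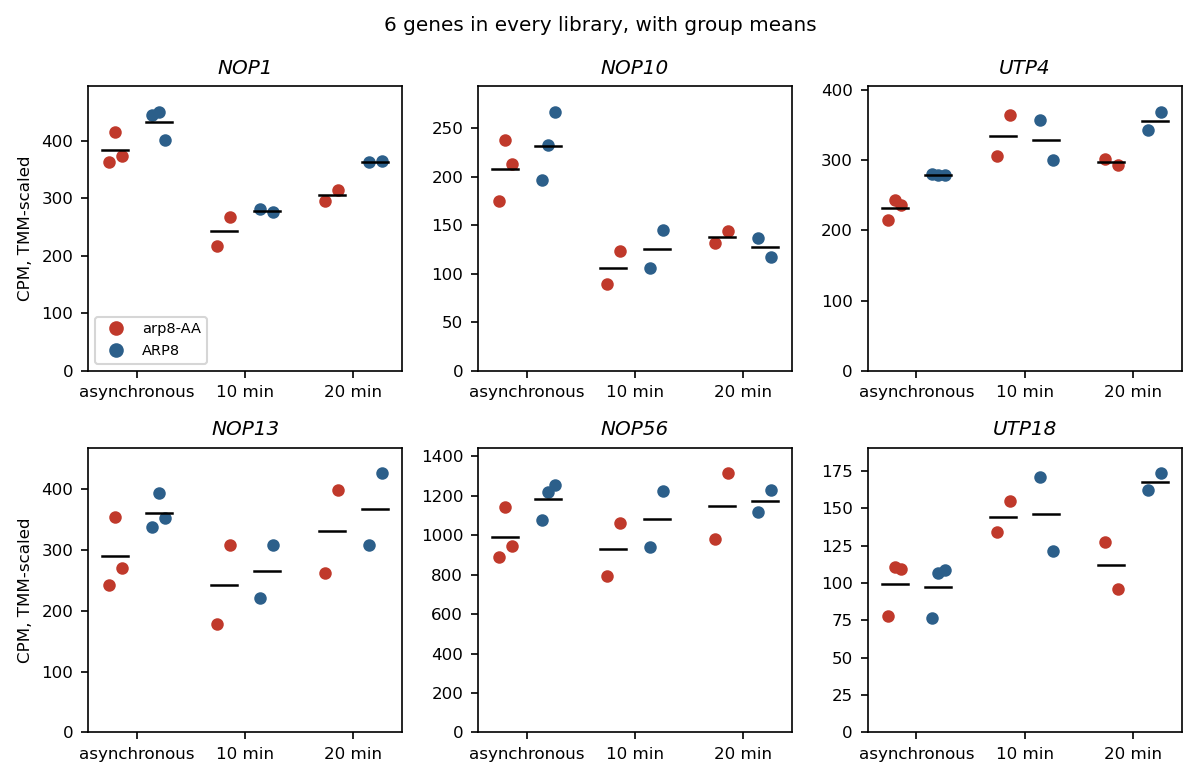
CPM with TMM scaling over all 14 libraries for NOP1, NOP10, UTP4, NOP13, NOP56 and UTP18 by stage, with arp8-AA (red) left of ARP8 (blue), 1 dot per library and a line at the mean of each group. NOP10 and NOP1 are lower at 10 min than in asynchronous cells in both genotypes, and UTP18 at 20 min has both arp8-AA libraries below both ARP8 libraries.

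In asynchronous cells, 90 of 96 other ribosome biogenesis factors (median -0.19), 136 of 137 cytosolic ribosomal protein genes (-0.22), 12 of 15 RNA polymerase I genes (-0.10) and all 10 RNA polymerase III genes (-0.19) had a negative log2 fold change in arp8-AA, and none of them was called. The 11 exosome genes of other names had 8 negative values and a median of -0.09. At 20 min, 77 of the 96 other factors were negative (-0.16), while the ribosomal protein genes were divided, with 65 of 137 negative and a median of 0.004, from medians of -0.16 in pair 1 and 0.20 in pair 2. At 10 min, 74 of the 96 other factors were negative (-0.09), with medians of -0.25 in pair 1 and 0.08 in pair 2. The ribosomal protein genes were negative in 120 of 137 cases at 10 min (-0.27, none called), with 129 below 0 in pair 1 (-0.17) and 107 in pair 2 (-0.34). In pair 2 they thus lay on the other side of 0 from the members. The 16 regulators of this transcription programme had medians of -0.04 in asynchronous cells and 0.03 at 20 min, and none was called.

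The study took the 10 and 20 min samples to represent G1 and early S. From flow cytometry, the paper reports that arp8-AA cells entered S phase later than wild-type cells after release. Whether the genotypes were at the same stage at a given time was not tested here. The 20 min libraries were compared with the 10 min libraries within each genotype. No member was called in arp8-AA, where 0.0183% of all transcripts were, or in ARP8, where 0.11% were. At an unadjusted p under 0.05 there were 6 of 53 members in arp8-AA, where 9.98% of all transcripts were in either direction. In ARP8 there were 7 of 53, where 10.1% were. The shares of the members were thus near those of all transcripts, if a little above. These members were all higher at 20 min, but all transcripts were not counted by direction at this threshold. In arp8-AA, 33 of the 53 members had a positive log2 fold change, with a median of 0.09, and in ARP8 41 did, with a median of 0.17. In arp8-AA the 2 pairs differed, with medians of 0.23 in pair 1 and 0.005 in pair 2, and in ARP8 they were 0.08 in pair 1 and 0.25 in pair 2.

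NOP13 had the smallest p in both genotypes. In arp8-AA it had 268.3 and 416.5 CPM at 20 min and 183.6 and 314.9 CPM at 10 min (log2 fold change 0.47 ± 0.15, adjusted p = 0.362), and in ARP8 it had 314.0 and 435.3 CPM at 20 min and 225.0 and 320.2 CPM at 10 min (0.46 ± 0.15, adjusted p = 0.300). It was higher at 20 min in all 4 pairs, but the replicates of 1 time differed by more than the times. In arp8-AA, RRP14 had 179.3 and 227.4 CPM at 20 min and 133.1 and 174.6 CPM at 10 min (0.40 ± 0.15), with no overlap. NOP2, which encodes the essential methyltransferase of the large subunit RNA, had 105.3 and 174.3 CPM at 20 min and 97.5 and 87.7 CPM at 10 min in arp8-AA (0.59 ± 0.24), a value that rested mostly on replicate 2.

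In ARP8, NOP58 had 599.6 and 604.8 CPM at 20 min and 507.3 and 365.0 CPM at 10 min (0.47 ± 0.17, adjusted p = 0.381). UTP23, which binds the snR30 RNA, had 162.9 and 184.6 CPM at 20 min and 136.2 and 104.0 CPM at 10 min (0.54 ± 0.20, adjusted p = 0.388). For both genes the times did not overlap. The same genes in arp8-AA were at 0.40 ± 0.17 for NOP58 and 0.16 ± 0.20 for UTP23.

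By role, the 60S factors were positive at 20 min in 12 of 14 cases in arp8-AA (median 0.22) and in 14 of 14 in ARP8 (median 0.27), and the box C/D genes in 3 of 4 in each genotype (medians 0.33 in arp8-AA and 0.25 in ARP8), with RRP9 the exception in each. The UTP-B genes were all negative in arp8-AA (median -0.17) and positive in 3 of 4 cases in ARP8 (0.16), and the UTP-A genes had medians of -0.13 in arp8-AA and 0.13 in ARP8. The UTP-A and UTP-B values of arp8-AA came from pair 2, where 5 of 6 UTP-A genes (median -0.20) and all 4 UTP-B genes (-0.39) were below 0. In pair 1 of arp8-AA, 4 of 6 UTP-A genes (0.06) and 2 of 4 UTP-B genes (0.004) were above 0. In ARP8 the UTP-A medians were 0.03 in pair 1 and 0.23 in pair 2, and the UTP-B medians -0.08 and 0.39. The difference between genotypes was not called for any of these genes.

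Against asynchronous cells, the 10 min libraries showed the only members past the threshold. These libraries come from another experiment than the asynchronous ones, with an arrest and a release, and stage and experiment cannot be told apart. In arp8-AA, NOP1 and NOP10 were lower and UTP4 was higher, which is 5.66% of the members, where 13.6% of all transcripts were called (7.54% higher and 6.08% lower). In ARP8, NOP1 and NOP10 were lower, which is 3.77% of the members, where 15.5% were called (8.48% higher and 7.01% lower). With library size as the only scaling, 4 members were higher and 2 lower in arp8-AA, and 5 higher and 2 lower in ARP8. The comparisons in the 2 genotypes share no library. The members' median log2 fold change was 0.04 in arp8-AA and -0.03 in ARP8, on the scale of CPM. TPM gave a different picture. The median TPM of the members averaged 86.9 at 10 min and 57.9 in asynchronous cells of arp8-AA, and 77.4 and 58.7 in ARP8.

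NOP10 had 89.7 and 123.2 CPM at 10 min and 174.5, 237.2 and 213.0 CPM in asynchronous cells of arp8-AA (log2 fold change -0.96 ± 0.21, adjusted p = 0.0107). In ARP8 it had 105.6 and 145.2 CPM at 10 min and 196.3, 232.7 and 266.6 CPM in asynchronous cells (-0.88 ± 0.21, adjusted p = 0.0154). The groups did not overlap in either genotype. NOP1 had 217.5 and 267.5 CPM at 10 min and 363.0, 415.4 and 373.5 CPM in asynchronous cells of arp8-AA (-0.66 ± 0.13, adjusted p = 0.00752), and in ARP8 280.8 and 276.2 CPM at 10 min and 445.0, 450.4 and 401.2 CPM in asynchronous cells (-0.63 ± 0.13, adjusted p = 0.00927). Again every 10 min library was below every asynchronous library in CPM. In TPM this held for NOP1 in arp8-AA but not in ARP8. There, replicate 1 of 10 min had 229.8 TPM and asynchronous replicate 3 had 219.3 TPM. NOP10 was not called in ARP8 without replicate 1 of 10 min (-0.67), nor in arp8-AA without replicate 1 of 10 min (-0.76). NOP1 was not called in ARP8 without replicate 2 of 10 min (-0.62), nor in arp8-AA without replicate 1 of 10 min (-0.52).

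UTP4 had 306.0 and 363.4 CPM at 10 min and 214.8, 242.9 and 236.3 CPM in asynchronous cells of arp8-AA (0.53 ± 0.13, adjusted p = 0.0184), with no overlap. It was not called without replicate 2 of 10 min (0.40), without asynchronous replicate 1 (0.48) or without asynchronous replicate 3 (0.55). In ARP8 it had 357.3 and 299.3 CPM at 10 min and 279.4, 279.2 and 278.8 CPM in asynchronous cells (0.23 ± 0.13, adjusted p = 0.245). The difference between the genotypes was 0.30 ± 0.19 (adjusted p = 0.9999), so a difference in the response of UTP4 was not shown.

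The sign of the median of each role was the same in the 2 genotypes. All 4 UTP-B genes (medians 0.43 in arp8-AA and 0.34 in ARP8) and both UTP-C genes were higher in value at 10 min than in asynchronous cells, while 3 of the 4 box C/D genes (-0.26 in arp8-AA and -0.32 in ARP8) and 9 and 12 of the 14 factors of the 60S particle in arp8-AA and ARP8 (-0.10 and -0.12) had negative values. RRP9 was the box C/D gene with a positive value, 0.46 in arp8-AA and 0.55 in ARP8. The medians of the 23 members with PAC were 0.14 in arp8-AA and 0.10 in ARP8, and those of the 30 without it -0.01 and -0.11. The 10 min libraries enter both this comparison and that of 20 min against 10 min, so opposite signs of a group in the 2 comparisons are not independent. At 20 min against asynchronous cells, in a comparison added after the data were seen, no member was called in arp8-AA (12% of all transcripts called), and in ARP8 NOP10 was lower (-0.86 ± 0.21, adjusted p = 0.0220) and UTP18 higher (0.78 ± 0.22, adjusted p = 0.0362), where 11.4% of all transcripts were called.

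**Figure D5:**
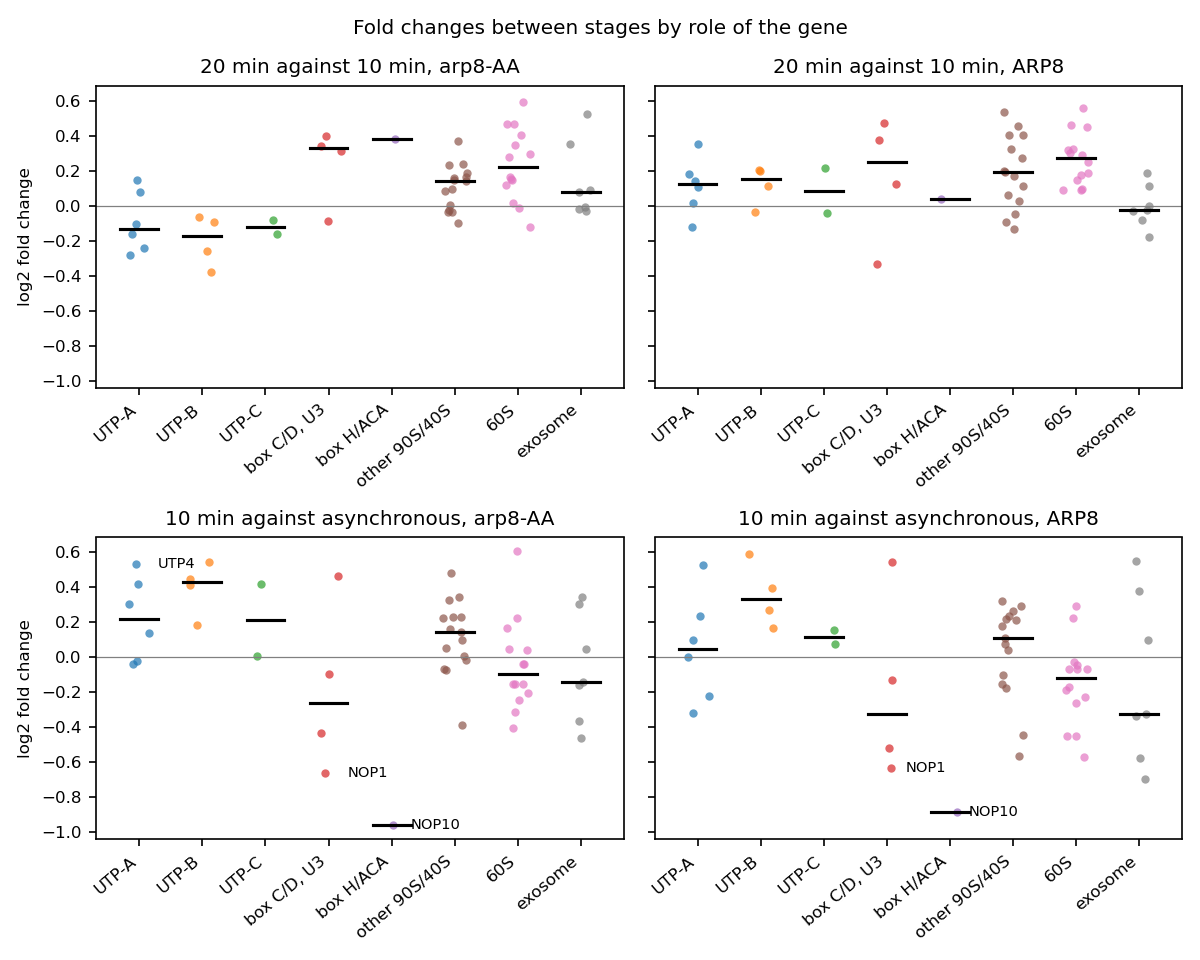
Log2 fold changes of the 53 genes by role, at 20 min against 10 min (top) and at 10 min against asynchronous cells (bottom), in arp8-AA (left) and ARP8 (right), 1 dot per gene with a line at the median of the role. Named dots passed an adjusted p of 0.05: NOP1 and NOP10 in both genotypes and UTP4 in arp8-AA, all in the bottom row.

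The other genes of the pathway were also compared at 10 min against asynchronous cells. Of all transcripts, 13.6% were called in arp8-AA and 15.5% in ARP8. Of 137 ribosomal protein genes, 26 were lower and 2 higher in arp8-AA, and 32 were lower and 2 higher in ARP8. In each genotype this is a larger share than over all transcripts. Of the 96 other biogenesis factors, 7 were higher and 1 lower in arp8-AA, and 5 were higher and 1 lower in ARP8. Here the share was smaller than over all transcripts in each genotype. The ribonuclease gene RNT1, whose product cuts the precursor RNA, had 168.3 and 229.5 CPM at 10 min and between 77.2 and 111.5 CPM in the 3 asynchronous libraries of arp8-AA (1.01 ± 0.23, adjusted p = 0.0141), without overlap. In ARP8 the log2 fold change of RNT1 was 1.07 ± 0.23 (adjusted p = 0.0107). The ribosomal protein gene with the largest change was RPL41B in arp8-AA, with 313.4 and 311.1 CPM at 10 min and 1120, 1399 and 1036 CPM in asynchronous cells (-1.92 ± 0.19, adjusted p = 1.4e-04), and RPS15 in ARP8, with 6.21 and 7.93 CPM at 10 min and 59.6, 31.03 and 15.9 CPM in asynchronous cells (-2.31 ± 0.44, adjusted p = 0.00571). The groups did not overlap in either gene, and the asynchronous values of RPS15 fell over a wide range.

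Among genes of the polymerases and regulators, RRN7, a subunit of the core factor of RNA polymerase I, had 26.7 and 41.5 CPM at 10 min and 16.7, 14.5 and 19.8 CPM in asynchronous cells of arp8-AA (1.01 ± 0.29, adjusted p = 0.0360). RPC11, a subunit of RNA polymerase III, had 73.2 and 83.2 CPM at 10 min and 41.8, 46.0 and 49.1 CPM in asynchronous cells of arp8-AA (0.78 ± 0.17, adjusted p = 0.0117). In ARP8, HMO1, a protein of ribosomal DNA chromatin, had 52.0 and 21.6 CPM at 10 min and 144.3, 89.7 and 95.9 CPM in asynchronous cells (-1.59 ± 0.41, adjusted p = 0.0233). DOT6, a repressor that binds PAC, had 1.94 and 3.17 CPM at 10 min and 25.7, 6.79 and 5.30 CPM in asynchronous cells of ARP8 (-2.25 ± 0.70, adjusted p = 0.0466). Replicate 1 of the asynchronous cells was again far above the rest. The 10 min values of DOT6 rest on few reads, in libraries of 2477812 and 3233859 estimated counts.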

How the data were processed

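Per the labels and methods, the authors extracted total RNA, depleted ribosomal RNA, made directional libraries and pseudoaligned the reads to the R64 transcriptome with kallisto 0.48 at default settings, which does not use strand. The deposited tables hold estimated counts and TPM per transcript, with no filter. Estimated counts were rounded and analysed with edgeR 4.0.16 in R 4.3.3 (TMM scaling, filterByExpr, two-sided quasi-likelihood F-test, Benjamini-Hochberg adjustment over all transcripts, threshold 0.05), and standard errors were derived from the F statistic. Asynchronous and synchronised libraries were fitted apart with the replicate number as a block, after the adjustment in the study, and 10 min against asynchronous cells in 1 fit of all 14 libraries without it. Deviations of libraries from their group means correlated between same-numbered libraries at r of 0.174 to 0.329 (asynchronous) and 0.493 to 0.661 (synchronised). Of the 6612 transcripts, 5929 matched a locus tag. None of the members overlaps another gene of the RefSeq annotation, which leaves out the 683 unmatched transcripts, and 2 share 31-mers with another coding sequence (at most 0.133%). Promoter motifs were searched in R64 from RefSeq.

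The members and gene lists were chosen with earlier results of these data known. Values were printed for members past the threshold, otherwise for the 3 smallest p, for the 3 highest and 3 lowest levels, and for the largest called change of each list. The script was tested on simulated data. Alternatives were DESeq2 1.42.0 (size factors, Wald test), library size alone, other filters, limma 3.58.1 (voom), a threshold of 0.1, no block, only the 2 groups compared, and each library left out.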

Additional observations from a re-analysis of the deposited data

How the results depend on the processing

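With 2 or 3 libraries per group, the standard errors beside each value give the precision, and where a left-out library left 1 in its group, that library was assumed to vary like the other groups. In every alternative run, no member was called between genotypes or between 20 min and 10 min. At 10 min against asynchronous cells, 2 members were called in ARP8 (7 with library size only, 5 higher and 2 lower, and 8 with a threshold of 0.1) and 3 in arp8-AA (6 with library size only, 6 with the DESeq2 Wald test and 6 with a threshold of 0.1). With 1 library left out the count was 1 to 2 in ARP8 and 1 to 3 in arp8-AA. Library size alone also moved the members' median at 10 min against asynchronous ARP8 cells to 0.072. The median for arp8-AA against ARP8 at 20 min was -0.18 with DESeq2 size factors and -0.18 with the DESeq2 Wald test, -0.12 with library size only, and -0.17 to -0.12 with 1 library left out. In the other comparisons, leaving out 1 library gave medians of -0.23 to -0.13 in asynchronous cells, -0.22 to 0.03 at 10 min, -0.18 to -0.10 over both times, -0.15 to 0.05 for the interaction, 0.11 to 0.24 in ARP8 and -0.002 to 0.22 in arp8-AA at 20 min against 10 min, and -0.06 to 0.04 in ARP8 and -0.16 to 0.20 in arp8-AA at 10 min against asynchronous cells. Without the replicate block the medians were -0.16 in asynchronous cells, -0.07 at 10 min and -0.17 at 20 min, and no call of a member changed. The share of the members averaged 1.40% of counts and 0.663% of summed TPM.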
